A study of Mus musculus with 2 samples.

Results

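A set of 10 transcription factor genes that act in stratified epithelia or in the patterning of oral tissues was followed through the keratinocytes of mouse palatal gingiva: Trp63, Klf4, Klf5, Grhl3, Ovol1, Gata3, Tfap2b, Barx2, Pitx1 and Pax9. They were taken by symbol from the 32285 genes of the count matrices, and all 10 had at least 1 UMI (unique molecular identifier, 1 captured RNA molecule) in the keratinocytes of both libraries. Their RNA was counted in cells with at least 800 detected genes and compared between keratinocyte layers, between cells with and without the long noncoding RNA H19, and between the libraries.

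The study asked how bacterial products applied to the gum surface act on gingival tissue. Female C57BL/6 mice aged 8 to 12 weeks received 3 µl of a ligand solution at 1 µg/ml on the palatal gingiva for 1 h under a fitted oral appliance, and the tissue was harvested on day 4. The CpG ODN group received a synthetic oligodeoxynucleotide that is a ligand of Toll-like receptor TLR9, and the LPS group received lipopolysaccharide of Porphyromonas gingivalis, a ligand of TLR2 and TLR4. After digestion with collagenase II and trypsin, the cells of 4 mice were pooled in equal parts, giving 1 droplet-based 3' library per group. No strain, sex or allele separated the groups, and an untreated gingiva was not analysed here. Each group is 1 library without a replicate, so no test was possible, and the 95% intervals given cover counting error only.

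The gingival epithelium renews itself from a basal layer that holds onto the basement membrane, from which cells leave upwards through spinous layers while they switch keratins and finally cornify. p63, the product of Trp63, maintains the basal keratinocyte program, whereas Klf4, Grhl3 and Ovol1 are known for barrier formation and for the exit from proliferation in the upper layers of skin. Pitx1, Pax9, Barx2 and Tfap2b are better known from embryonic patterning of the jaw, palate, teeth, tongue and face, and Gata3 acts in epidermis and hair follicle as well as in T lymphocytes.

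After the gene filter, 4888 CpG ODN and 1277 LPS cells remained, with a median of 11077.5 and 22680.0 UMIs per cell. Clustering placed 3675 and 959 of them in 8 groups of keratinocytes, and 1 of the barcodes kept occurred in both libraries. Basal-like cells (1042 and 250) held Krt14 at 20627 and 19654 counts per 1000000 UMIs (CPM) and Col17a1, a hemidesmosomal collagen, at 1272 and 1394 CPM. The suprabasal groups are called by the keratin or gene that set them apart, because some of their clusters did not meet the fixed marker rule for a layer name. These were the intermediate cells (888 and 146), the Krt76-rich cells (295 and 73), the Krt10-rich cells (869 and 231), the Krt4-led cells (98 and 74) and the Lor-led cells (90 and 33), the last expressing loricrin, a protein of the cornified envelope. Dividing cells (305 and 80) and H19-led cells (88 and 72) completed the set. None of the 10 genes, nor any gene of the 3 further transcription factor lists below, entered the clustering. Markers of other cell types summed to at most 55.3 CPM in any keratinocyte group for B cells, T cells, myeloid cells and Langerhans cells. Fibroblast markers summed to between 3.69 and 956 CPM and were highest in the basal-like, dividing and H19-led cells. The median UMI count was 9434.5 and 18256 in basal-like and 26583 and 47207 in Krt10-rich cells, so levels are given as CPM and shares of cells with a UMI are given with the share in an unnamed cluster led by the immunoglobulin gene Ighm (283 and 69 cells, median 2149 and 3157 UMIs).

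Promoter windows of 5 of the 10 genes were held in the RefSeq table used here (build GRCm38.p6, from 250 bases before to 50 bases after the start), and those of the genes that separated the layers are shown. They are Klf4 at chr4:55532426-55532725 (minus strand) and Grhl3 at chr4:135573583-135573882 (minus strand), which were higher in upper layers, Tfap2b at chr1:19211804-19212103 (plus strand), which was higher in the basal layer, and Pax9 at chr12:56695221-56695520 (plus strand), which was high in a subset of keratinocytes. Capitals mark a match to 1 of 7 motifs, read on both strands:
Klf4: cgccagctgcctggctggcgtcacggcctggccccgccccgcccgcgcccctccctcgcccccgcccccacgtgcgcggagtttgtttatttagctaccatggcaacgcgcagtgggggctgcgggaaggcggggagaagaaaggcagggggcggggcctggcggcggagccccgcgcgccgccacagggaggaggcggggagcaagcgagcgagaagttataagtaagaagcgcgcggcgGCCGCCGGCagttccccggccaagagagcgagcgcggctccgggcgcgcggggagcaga
Grhl3: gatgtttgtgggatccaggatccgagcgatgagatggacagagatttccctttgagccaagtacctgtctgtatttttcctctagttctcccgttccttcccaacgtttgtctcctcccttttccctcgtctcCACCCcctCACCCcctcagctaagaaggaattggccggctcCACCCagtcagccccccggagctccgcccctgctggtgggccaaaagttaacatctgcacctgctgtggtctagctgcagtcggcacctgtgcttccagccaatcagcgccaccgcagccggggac
Tfap2b: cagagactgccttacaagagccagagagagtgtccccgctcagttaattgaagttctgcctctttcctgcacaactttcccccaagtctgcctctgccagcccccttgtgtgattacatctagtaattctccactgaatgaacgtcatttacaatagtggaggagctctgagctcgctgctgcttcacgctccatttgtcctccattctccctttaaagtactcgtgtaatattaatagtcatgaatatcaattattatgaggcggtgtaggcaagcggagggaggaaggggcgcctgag
Pax9: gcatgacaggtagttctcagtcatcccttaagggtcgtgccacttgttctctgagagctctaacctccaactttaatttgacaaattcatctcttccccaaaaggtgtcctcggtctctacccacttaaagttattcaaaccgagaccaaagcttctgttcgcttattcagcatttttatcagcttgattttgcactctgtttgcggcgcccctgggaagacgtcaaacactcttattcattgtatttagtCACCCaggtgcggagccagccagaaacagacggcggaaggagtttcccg
The capitals in the Klf4 window are the AP-2 motif GCCNNNGGC, which 16.6% of all 32851 windows of the same length held. Those in the Grhl3 window (3 matches) and in the Pax9 window (1 match) are CACCC, the box read by Krüppel-like factors, which 57.5% of windows held. The Tfap2b window matched none of the 7. None of the 4 windows held the Grainyhead motif AACCNGTT (2.09% of windows) or the PITX motif TAATCC (7.06%). The GATA motif AGATAA (11.2%) and TATAAA (13.6%) were absent from these 4 windows too. So was a fixed string searched under the name of the p53 family (0.575%). That string is not the site read by this family, so the absence of p53 family sites was not tested. The Tfap2b and Pax9 windows lie inside the longer gene models of the GENCODE annotation and the Klf4 and Grhl3 windows overlap the start of theirs.

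Of the 10 genes, 6 differed at least 2-fold between Krt10-rich and basal-like cells in the same direction in both libraries. Klf4, Grhl3 and Ovol1 were higher in the Krt10-rich cells, and Trp63, Tfap2b and Barx2 were higher in the basal-like cells, out of 8 with at least 50 UMIs in the compared cells of each library. Barx2 rested on few UMIs, 42 in Krt10-rich against 79 in basal-like cells of CpG ODN and 28 against 29 in LPS. Its ratios were 0.220 (0.147 to 0.323) and 0.392 (0.224 to 0.682), so the LPS interval also holds differences below 2-fold. Of all 9426 genes that reached that minimum, 7.91% were higher and 19.5% lower in the Krt10-rich cells by the same rule. The median log2 ratio of Krt10-rich over basal-like cells was 0.66 in CpG ODN and 0.83 in LPS over the 9 and 8 of the 10 genes that reached the minimum in that library, against -0.43 and -0.39 over all genes. Scaling by the median ratio of genes instead of the UMI total raised all log2 values of this comparison by about 0.41 and 0.38, since the median gene lay at -0.41 and -0.38. It placed 5 genes higher, with Klf5 and Pitx1 added, and 2 lower, since Barx2 stood at -0.97 in LPS. With layers set by a keratin gate in each cell, over all cells of the 8 groups, 2 genes were higher and 4 lower. Klf4 missed the rule there with a log2 ratio of 0.83 in LPS. That gate gave 1758 and 488 basal-like and 685 and 189 Krt10-rich cells. It did not keep the H19-led, Krt4-led and Lor-led cells apart from the layers.

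**Figure D1:**
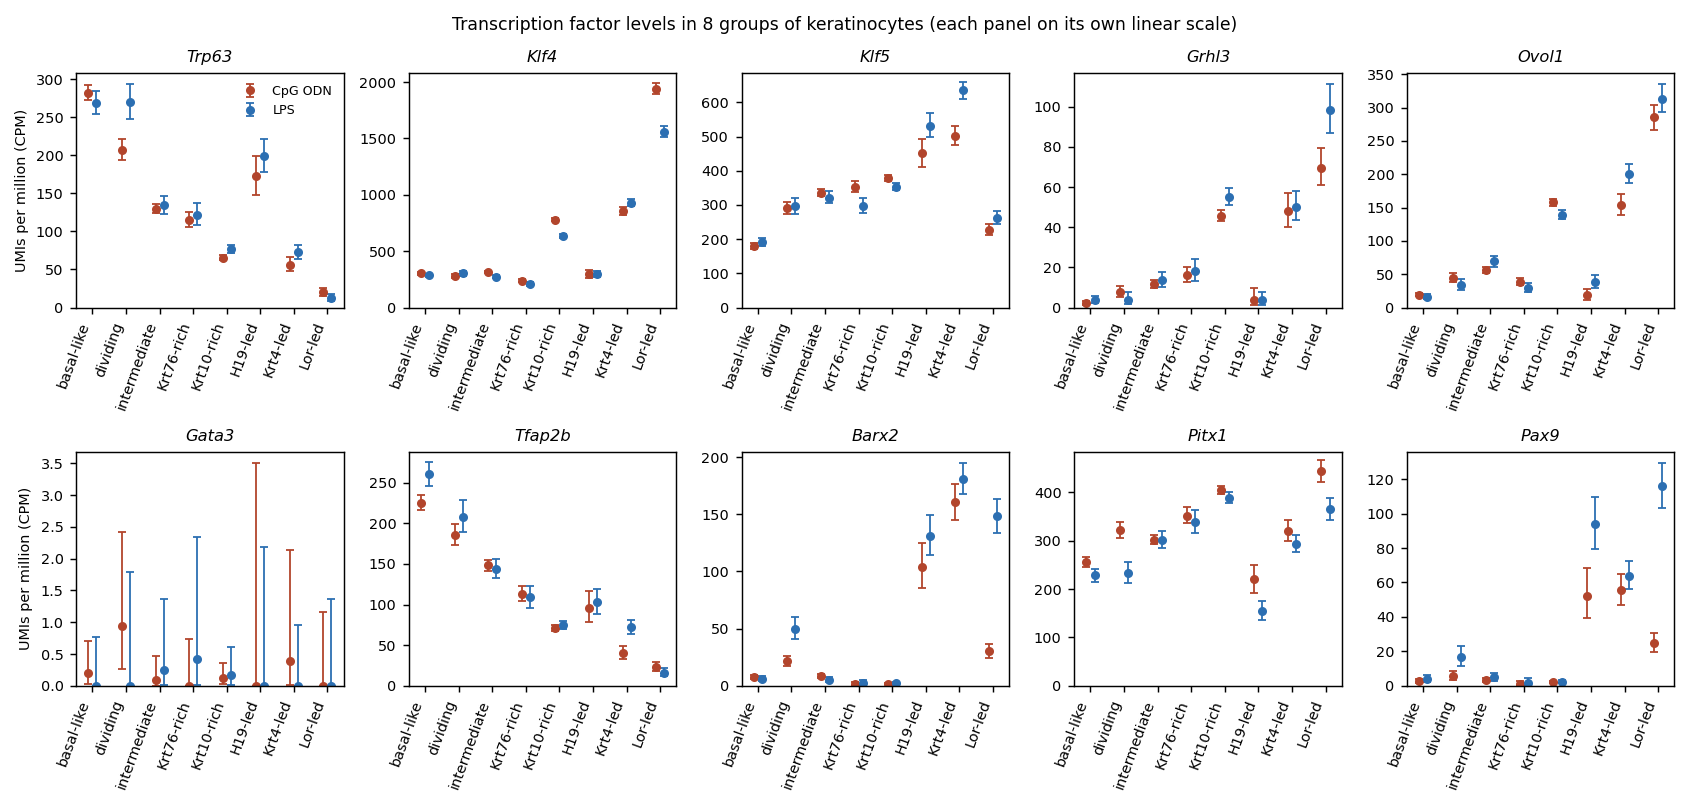
Level of each of the 10 genes in CPM (y axis, 1 panel per gene) in the 8 keratinocyte groups (x axis) of the CpG ODN and the LPS library, with 95% Poisson intervals for counting error. Trp63 and Tfap2b run down from the basal-like to the Krt10-rich and Lor-led cells, Grhl3 and Ovol1 run up, and Barx2 and Pax9 stand highest in the H19-led, Krt4-led and Lor-led groups.

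Trp63 (chr16:25683763-25892102, GRCm38) was highest in the basal-like and dividing cells. Its level in CpG ODN was 282 CPM in basal-like, 207 in dividing, 129.9 in intermediate, 115 in Krt76-rich, 65.6 in Krt10-rich and 19.8 in Lor-led cells, and in LPS it was 269, 270.0, 134, 122, 76.5 and 12.6. The order of these groups was therefore the same in both libraries except for the first pair, which did not differ beyond counting error in LPS, and the intermediate and Krt76-rich cells did not differ beyond it in either library. Basal-like cells exceeded Krt10-rich cells 4.30-fold in CpG ODN and 3.51-fold in LPS (Krt10-rich over basal-like 0.233, 95% interval 0.219 to 0.247, and 0.285, 0.261 to 0.310). Trp63 UMIs were still found in 76.8% and 86.1% of Krt10-rich cells, beside 88.5% and 97.2% of basal-like and 0.353% and 1.45% of Ighm-led cells. When every cell was thinned to 1500 UMIs, the shares were 9.64% and 10.5% of Krt10-rich against 34.1% and 33.2% of basal-like cells.

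Tfap2b (chr1:19208914-19238576), which encodes the transcription factor AP-2 beta, followed the same order. It was 225 CPM in basal-like, 186 in dividing, 148 in intermediate, 113 in Krt76-rich and 71.2 in Krt10-rich cells of CpG ODN, and 260.2, 208, 144, 109 and 75.1 CPM in LPS. Every one of these steps went down in both libraries, and basal-like cells exceeded Krt10-rich cells 3.16-fold and 3.47-fold. Unlike Trp63, which was 172 and 199 CPM in H19-led cells, Tfap2b was only 96.1 and 103 CPM there, 0.427 (0.346 to 0.521) and 0.394 (0.334 to 0.463) times its basal-like level.

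Along a score that ranks each cell by upper against basal markers, divided into 5 ranges of equal cell number, both genes were lower at each of the 4 steps in each library. Trp63 went from 283 to 60.5 CPM in CpG ODN and from 275 to 68.3 in LPS, and Tfap2b from 204 to 74.8 and from 243 to 73.9. The ranges are cuts through a continuous score and not cell types.

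Klf4 (chr4:55527143-55532466), a Krüppel-like factor of barrier formation, was distributed in the opposite way but, across the keratinocyte groups, with a step rather than an even slope. Basal-like, dividing, intermediate and H19-led cells held 303, 282, 313 and 295 CPM in CpG ODN and 286, 302, 274 and 294 CPM in LPS, and Krt76-rich cells held the lowest level with 238 and 210.5 CPM. The Krt10-rich, Krt4-led and Lor-led cells stood above all of these with 780.2, 853 and 1939.7 CPM in CpG ODN and 635, 928 and 1561 CPM in LPS. Klf4 was thus 2.57-fold (2.48 to 2.67) and 2.22-fold (2.10 to 2.36) higher in Krt10-rich than in basal-like cells, and Lor-led cells exceeded Krt10-rich cells a further 2.49-fold (2.42 to 2.56) and 2.46-fold (2.37 to 2.55). Along the marker score Klf4 was higher at each of the 4 steps in CpG ODN and at 3 of 4 in LPS. The largest step was the last, from 378 to 877 CPM in CpG ODN and from 357 to 771 CPM in LPS.

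Klf4 also varied within layers, and it did so together with 12 early response genes that tissue digestion is known to induce, a list made after the data had been seen. In the basal-like cells, the cluster led by Igfbp3 held 370.0 and 362 CPM of Klf4 and 7369 and 7798 CPM of the 12 genes, whereas the cluster led by Pappa held 214 and 193 CPM of Klf4 and 1654 and 1223 CPM of the 12 genes. In the intermediate cells, the cluster led by Krt42 held 399 and 319.9 CPM of Klf4 with 8284 and 7796 CPM of the 12 genes, and the cluster led by Krt15 held 189 and 179 CPM with 1444 and 1249 CPM. Among the 4 clusters of Krt10-rich cells, the pair with the higher sums of early response genes held more Klf4 than the pair with the lower sums. The clusters with 10713 and 11451 CPM, and with 11296 and 9814 CPM, of the early response genes held Klf4 at 707 and 639 and at 1336 and 1081 CPM. Those with 3352 and 2361 CPM, and with 2956 and 2171 CPM, held Klf4 at 335 and 273 and at 456 and 360.1 CPM. Inside the higher pair Klf4 followed the sum in CpG ODN but not in LPS, and inside the lower pair in neither library. The H19-led cells did not show high Klf4 with a high sum, since 8209 and 8830 CPM of the 12 genes went with Klf4 at 295 and 294 CPM. The Krt4-led and Lor-led cells, which held the most Klf4, had sums of 7368 and 8877 and of 9961 and 8466 CPM. Krt10-rich cells had 7985 and 6975 CPM and basal-like cells 4924 and 4824 CPM. The part of the early response in the Klf4 level of these groups was not tested. None of the 12 genes was at 0 in any of these cells. When the Krt10-rich clusters with at least 5000 CPM of the 12 genes were left out, a choice made after the data had been seen, the log2 ratio of Klf4 in Krt10-rich over basal-like cells was 0.37 in CpG ODN and 0.13 in LPS, below 2-fold. When the basal-like cluster above that level was left out as well, it was 0.87 and 0.69, again below 2-fold. Grhl3 and Ovol1 stayed at least 2-fold higher in both cases, Ovol1 with 1.77 and 1.81 in the first and 3.34 and 3.01 in the second. With both libraries joined, the Krt10-rich clusters left out held Krt10 at 4028 and 9705 CPM and those kept at 2383 and 5642 CPM. The choice thus also changed the Krt10 level of the cells compared, and the 2 were not separated.

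Grhl3 and Ovol1 showed the widest range between layers among the genes of differentiation. Grhl3 (chr4:135541888-135573630), a Grainyhead-like factor of the epidermal barrier, was 2.34 and 3.56 CPM in basal-like, 11.8 and 13.5 in intermediate, 16.0 and 18.1 in Krt76-rich, 45.8 and 55.2 in Krt10-rich and 69.7 and 98.6 CPM in Lor-led cells of CpG ODN and LPS. The Krt10-rich level exceeded the basal-like level 19.6-fold (13.1 to 30.7) and 15.5-fold (9.62 to 26.8), the basal-like counts being 24 and 17 UMIs. With layers from the keratin gate in each cell the log2 ratio was 2.45 and 1.65, against 4.29 and 3.96 with clusters. Cells with a Grhl3 UMI made up 60.8% and 79.7% of Krt10-rich, 1.82% and 6.00% of basal-like and none of the Ighm-led cells. After thinning to 1500 UMIs these shares were 6.57% and 8.06% against 0.303% and 0.498%.

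Ovol1 (chr19:5549136-5560646), a zinc finger repressor, was 19.5 and 15.9 CPM in basal-like, 157.7 and 139 in Krt10-rich, and 285 and 314 CPM in Lor-led cells. Its ratio of Krt10-rich over basal-like cells was 8.09 (7.01 to 9.37) in CpG ODN and 8.73 (6.93 to 11.1) in LPS, and with the keratin gate its log2 ratio was 2.28 and 1.07, against 3.02 and 3.13 with clusters. Between these ends it did not run evenly, since Krt76-rich cells (38.5 and 29.0 CPM) lay below the intermediate cells (56.7 and 69.3 CPM) in both libraries. In the 5 ranges of the marker score Grhl3 and Ovol1 were higher at each of the 4 steps, the top range exceeding the bottom one 37.7-fold and 20.6-fold for Grhl3 and 13.2-fold and 18.4-fold for Ovol1.

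Klf5 (chr14:99298691-99315036), the Krüppel-like factor usually linked to proliferating epithelium, was lowest in basal-like cells with 181 and 191 CPM. It was 291 and 296 CPM in dividing, 336 and 322 in intermediate, 379 and 353 in Krt10-rich, 451 and 532 in H19-led and 501 and 635 CPM in Krt4-led cells, and dropped to 228 and 262 CPM in Lor-led cells. Krt10-rich cells exceeded basal-like cells 2.10-fold (1.99 to 2.20) in CpG ODN but 1.85-fold (1.72 to 1.99) in LPS, so the rule of 2-fold in both libraries was missed by the LPS value. With the keratin gate the log2 ratio of Klf5 was 0.33 in CpG ODN and -0.05 in LPS, below 2-fold in both libraries.

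**Figure D2:**
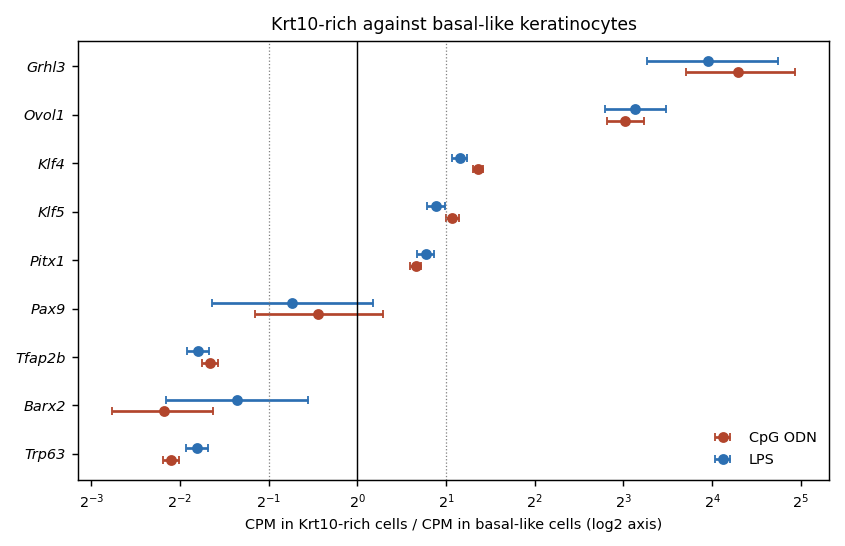
Ratio of the level in Krt10-rich cells over that in basal-like cells for 9 genes (rows) in the CpG ODN and the LPS library, with 95% intervals for counting error on a log2 axis whose dotted lines mark 2-fold. Grhl3 and Ovol1 lie farthest to the right in both libraries, Trp63, Barx2 and Tfap2b lie to the left, and the Pax9 intervals hold 1. Gata3 had too few UMIs for a ratio.

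Among the 8 keratinocyte groups, Barx2 and Pax9 were highest in those that held few of the cells. Barx2 (chr9:31846044-31913462), a homeobox gene of oral and pharyngeal tissues, was 104 and 131 CPM in H19-led and 160.4 and 181 CPM in Krt4-led cells, yet 7.70 and 6.07 CPM in basal-like and 1.69 and 2.37 CPM in Krt10-rich cells. Pax9 (chr12:56691767-56712822), a paired box gene needed for palate and tooth formation, was 52.3 and 93.7 CPM in H19-led, 55.4 and 63.8 CPM in Krt4-led, 2.63 and 3.97 CPM in basal-like and 1.93 and 2.37 CPM in Krt10-rich cells. The H19-led, Krt4-led and Lor-led groups together were 5.65% of the CpG ODN and 14.02% of the LPS cells kept, and they held 58.9% and 84.4% of all Barx2 UMIs and 42.9% and 72.1% of all Pax9 UMIs. A share of cells is not a share of all UMIs here. Median UMI counts were 23456.5 and 45133.5 in Krt4-led and 35909.5 and 78780 in Lor-led cells. Among the other genes the largest shares held by these groups were 21.5% in CpG ODN (Klf4) and 43.2% in LPS (Ovol1). For Pitx1 they were 10.9% and 21.3%. Krt13, a keratin of the lining oral mucosa that pairs with Krt4, was 2429 and 3461 CPM in H19-led against 126 and 145 CPM in basal-like cells, and 34934 and 30680.0 CPM in Krt4-led against 13835 and 15626 CPM in Krt10-rich cells.

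In the comparison of Krt4-led with Krt10-rich cells, Barx2 was 94.7-fold (68.9 to 133) and 76.3-fold (52.3 to 116) higher, and Pax9 28.6-fold (20.5 to 40.6) and 26.9-fold (18.1 to 41.3) higher. These 2 of 9 genes were the only ones at least 2-fold apart in both libraries, where 3.05% of all genes were higher and 2.49% lower in the Krt4-led cells. Klf4, Klf5, Ovol1, Grhl3, Trp63, Tfap2b and Pitx1 differed between these 2 groups by less than 2-fold in each library. H19-led against basal-like cells showed 3 of 8 genes higher, beside 1.11% of all genes, namely Barx2 (13.5-fold and 21.6-fold), Pax9 (19.9-fold and 23.6-fold) and Klf5 (2.50-fold and 2.78-fold). Tfap2b was the 1 lower gene, beside 2.28% of all genes. Between H19-led and Krt4-led cells the differentiation genes differed too, with Grhl3 12.6-fold and 14.1-fold, Ovol1 8.53-fold and 5.27-fold and Klf4 2.89-fold and 3.16-fold higher in Krt4-led cells, and Trp63 at 0.326 and 0.365 times its H19-led level.

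Cells with a UMI of Barx2 made up 81.6% and 94.6% of the Krt4-led cells, and cells with a UMI of Pax9 60.2% and 83.8%. Both genes had a UMI in 51.0% (50 of 98) and 78.4% (58 of 74) of Krt4-led cells and in 21.6% and 59.7% of H19-led cells, but in 0.575% and 1.30% of Krt10-rich cells. These shares were not thinned to a common depth. Median UMI counts were 23456.5 and 45133.5 in Krt4-led, 11178 and 23414.5 in H19-led and 26583 and 47207 in Krt10-rich cells. At least 1 of both genes was found in 90.8% and 100% of Krt4-led cells. In the Ighm-led cluster 1 CpG ODN cell had a Barx2 UMI and none had a Pax9 UMI in either library. Fibroblast-like cells also held Pax9, at 111 and 103 CPM, and no Barx2 UMI in 238 and 55 cells, which allows a level of at most 2.74 and 5.96 CPM. With both libraries joined, the clusters of gland or simple epithelium (148 and 26 cells) held Pax9 at 45.6 and 90.6 CPM. Their Barx2 levels were 59.2 and 1.54 CPM. An unnamed cluster of 17 cells held Pax9 at 276 CPM and no Barx2. Fibroblast markers summed to 605 and 956 CPM in H19-led cells, to 619 and 694 CPM in basal-like cells, where Pax9 was low, and to 40.8 and 38.0 CPM in Krt4-led cells, where it was high.

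The Lor-led cells, the most differentiated group, differed most between the libraries in these 2 genes. Barx2 was 30.1 CPM in CpG ODN and 148 CPM in LPS, 4.92-fold (3.93 to 6.21) higher in LPS, and Pax9 was 24.8 and 116 CPM, 4.68-fold (3.64 to 6.07) higher. The same cells differed in keratin, with Krt4 at 6831 CPM in CpG ODN and 35795 CPM in LPS and Krt10 at 10962 and 5937 CPM. When the group was divided at 5000 CPM of Krt4 in each cell, 17 of 90 CpG ODN cells (18.9%) and 22 of 33 LPS cells (66.7%) lay at or above this level. In those cells Barx2 was 140.3 CPM (114 to 171) in CpG ODN and 198 CPM (179 to 219) in LPS, a ratio of LPS over CpG ODN of 1.41 (1.13 to 1.78), and Pax9 was 107 and 159 CPM, a ratio of 1.49 (1.15 to 1.95). Below it Barx2 had 0 UMIs in 73 CpG ODN cells, which allows at most 1.20 CPM, and 28.8 CPM in 11 LPS cells, where all 23 UMIs came from 1 cell. Pax9 below it was 2.4 CPM in CpG ODN (6 UMIs in 5 cells) and 13.8 CPM in LPS (11 UMIs in 2 cells), a ratio of LPS over CpG ODN of 5.74 (1.95 to 18.9). Klf4 stood at 1649 and 1592 CPM above and at 2019 and 1487 CPM below the Krt4 level, so it did not part the cells in this way. How far the Krt4-high share makes the difference between the libraries was not tested.

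**Figure D3:**
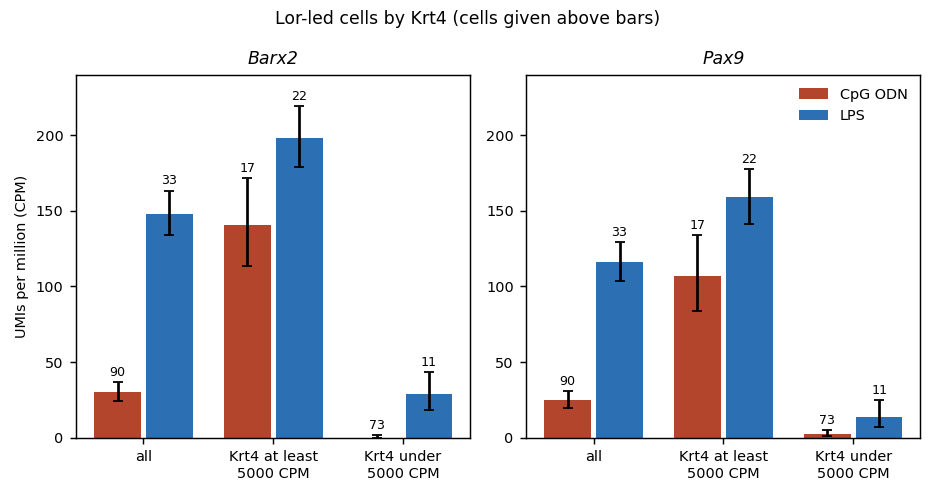
Levels of Barx2 and Pax9 (CPM, with 95% Poisson intervals) in all Lor-led cells and in those at or above and below 5000 CPM of Krt4, for the CpG ODN and the LPS library. Both genes are high in the Krt4-high cells of both libraries, which are 17 of 90 cells in CpG ODN and 22 of 33 in LPS.

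In Lor-led against Krt10-rich cells, Klf4, Barx2 and Pax9 were higher (3 of 9 genes, beside 5.96% of all genes) and Trp63 and Tfap2b lower (2 of 9, beside 20.5%). Over the whole Lor-led group Barx2 was 17.8-fold and 62.4-fold and Pax9 12.8-fold and 48.8-fold higher. Ovol1 was 1.81-fold and 2.26-fold and Grhl3 1.52-fold and 1.79-fold higher. Trp63 was 0.301 and 0.164 times, and Tfap2b 0.330 and 0.212 times, the Krt10-rich level.

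Pitx1 (chr13:55825051-55836192), a homeobox gene of the jaw and hindlimb, was the most evenly spread of the genes detected in keratinocytes. Its lowest level was 220 and 155 CPM in H19-led cells and its highest was 444 CPM in Lor-led cells of CpG ODN and 389 CPM in Krt10-rich cells of LPS, a span of 2.02-fold and 2.51-fold. It was higher at each of the 4 steps of the marker score, from 256 to 403 CPM and from 231 to 379.8 CPM, and Krt10-rich cells exceeded basal-like cells 1.58-fold (1.51 to 1.65) and 1.70-fold (1.59 to 1.82). The highest levels in the data were outside the 8 groups, in 17 cells per library led by Odam, a gene of the junctional epithelium at the tooth, with 961 and 499 CPM.

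Gata3 (chr2:9857078-9890034) was all but undetected in the keratinocytes. It gave 11 UMIs in the 3675 CpG ODN and 4 UMIs in the 959 LPS cells, and no layer held more than 4. The limits set by a count of 0 lay between 0.601 and 2.85 CPM, in the groups where none was found. T cell-like cells held 79.2 CPM (27 UMIs in 85 cells) and 97.3 CPM (17 UMIs in 27 cells), out of 44 and 35 Gata3 UMIs in the 2 libraries. No ratio between layers can be given for it.

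Cells with at least 3 H19 UMIs were 42 in CpG ODN and 57 in LPS, against 3529 and 850 with none, and 13 and 7 of them held exactly 3. Of the H19-positive cells 64.3% and 54.4% lay in the H19-led group and none in the Krt76-rich, Krt10-rich or Lor-led groups. Across all layers Barx2 was 8.95-fold (6.84 to 11.5) and 3.65-fold (3.14 to 4.22) and Pax9 5.15-fold (2.97 to 8.38) and 3.16-fold (2.55 to 3.88) higher in H19-positive cells. Grhl3, at 0.412 (0.165 to 0.850) and 0.158 (0.0786 to 0.284), and Ovol1, at 0.272 (0.159 to 0.436) and 0.302 (0.232 to 0.386) times the H19-negative level, were lower. The Grhl3 ratio rests on 7 and 11 UMIs in H19-positive cells and stood at a log2 value of 0.0742 in CpG ODN with a limit of 10 H19 UMIs. The 2 lower genes became 1 with that limit and 0 with a limit of 1 H19 UMI. Among all genes with enough UMIs, 5.94% were higher and 3.67% lower by the same rule. The median gene lay 0.16 and 0.25 higher on the log2 scale in H19-positive cells. Ratios of Trp63 were 1.35 and 1.71, of Klf5 1.13 and 1.22, of Klf4 0.633 and 0.462 and of Pitx1 0.644 and 0.670. Tfap2b had 1.04 in CpG ODN, which turned below 1 (log2 ratio -0.11) when scaled by the median gene, and 1.51 in LPS.

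The comparison was repeated within basal-like and H19-led cells, since the 2 sides differ in layer, and this restriction was chosen after the data had been seen. It did not make the sides alike in group. Of the H19-positive cells 27 of 34 in CpG ODN and 31 of 41 in LPS were H19-led, against 38 of 1044 and 25 of 252 H19-negative cells. The H19-led group was itself formed by its H19 level. Barx2 was here 9.79-fold (6.79 to 13.9) and 5.53-fold (4.14 to 7.40) and Pax9 6.33-fold (3.15 to 11.8) and 6.15-fold (4.33 to 8.78) higher, beside 0.482% of all genes. None of the 8 genes with enough UMIs was lower in both libraries, where 1.6% of all genes were. Klf4 was then 0.995 (0.829 to 1.19) and 0.908 (0.798 to 1.03) times and Ovol1 0.694 (0.252 to 1.54) and 1.44 (0.929 to 2.18) times the H19-negative level, with intervals that hold 1. Tfap2b was 0.438 (0.314 to 0.597) times that level in CpG ODN and 0.968 (0.834 to 1.12) times in LPS. Trp63, above 1 across all layers, was here 0.577 (0.448 to 0.733) and 0.823 (0.711 to 0.949) times the H19-negative level, and Klf5 was 1.73-fold (1.45 to 2.05) and 1.83-fold (1.64 to 2.05) higher. Inside the H19-led group alone, 27 H19-positive were compared with 38 H19-negative cells in CpG ODN and 31 with 25 in LPS. Barx2 had a ratio of 1.28 (0.824 to 2.004) and 1.08 (0.787 to 1.49) and Pax9 of 0.533 (0.246 to 1.09) and 1.42 (0.963 to 2.12). No difference beyond counting error was thus resolved for these 2 genes, but the Pax9 intervals reach beyond 2-fold in both libraries, in opposite directions. The 7 and 10 H19-positive basal-like cells held 1 and 8 Barx2 UMIs, too few in CpG ODN to set a ratio closely.

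**Figure D4:**
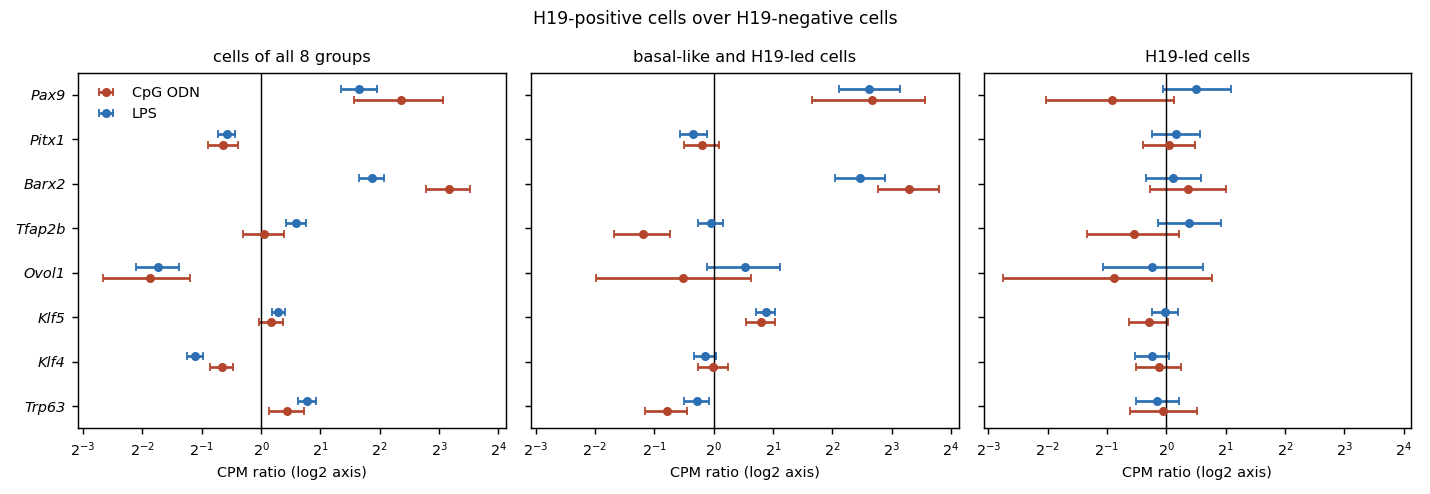
Ratio of the level in H19-positive over H19-negative cells for 8 of the 10 genes in all 8 keratinocyte groups (left), in basal-like and H19-led cells (middle) and in H19-led cells alone (right), for the CpG ODN and the LPS library, with 95% intervals for counting error on a log2 axis. Barx2 and Pax9 lie far to the right in the left and middle panels, Klf4 and Ovol1 lie to the left in the left panel and have intervals that hold 1 in the middle one, and every interval of the right panel holds 1.

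None of 6 genes in basal-like cells, of 6 in Krt76-rich cells or of 7 in Krt10-rich cells with enough UMIs differed 2-fold between the libraries, where 0.280%, 0.188% and 0.147% of all genes did. With layers from the keratin gate in each cell the count became 3 in basal-like cells, with log2 ratios of CpG ODN over LPS of -1.05 for Grhl3, -1.19 for Barx2 and -1.64 for Pax9, and 1 in Krt10-rich cells. The basal-like cells of that gate were 1758 and 488, against 1042 and 250 with clusters. They could include H19-led and Krt4-led cells, whose cluster levels of Krt14, Krt76 and Krt10 meet the gate. The part of such cells was not tested. The ratio of CpG ODN over LPS in basal-like cells lay between 0.658 and 1.27 over 9 genes, with a median of 1.05, and 7 of the 9 intervals held 1. Of the 9 intervals in each group, 6 held 1 in Krt76-rich, 3 in Krt10-rich and 1 in Lor-led cells. In Krt10-rich cells the largest departure with many UMIs was Klf4, at 780.2 CPM in CpG ODN and 635 CPM in LPS, a ratio of 1.23 (1.20 to 1.26), and the 12 early response genes summed there to 7985 and 6975 CPM. Trp63 had a ratio of 0.858 (0.790 to 0.932) and Grhl3 0.829 (0.752 to 0.914) in the same cells.

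Larger ratios appeared in the small groups. Dividing cells held Barx2 at 21.5 CPM in CpG ODN and 49.8 CPM in LPS, a ratio of 0.431 (0.322 to 0.577), and Pax9 at 5.67 and 16.5 CPM, a ratio of 0.345 (0.195 to 0.598). H19-led cells held Ovol1 at 18.1 and 38.0 CPM, a ratio of 0.476 (0.269 to 0.805), from 19 and 64 UMIs. The H19-led and Krt4-led groups made up 2.39% and 2.67% of the keratinocytes in CpG ODN and 7.51% and 7.72% in LPS, and the part of such cells in the dividing group was not tested. With 1 library per ligand, ligand, animals and library cannot be told apart in any of these ratios.

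**Figure D5:**
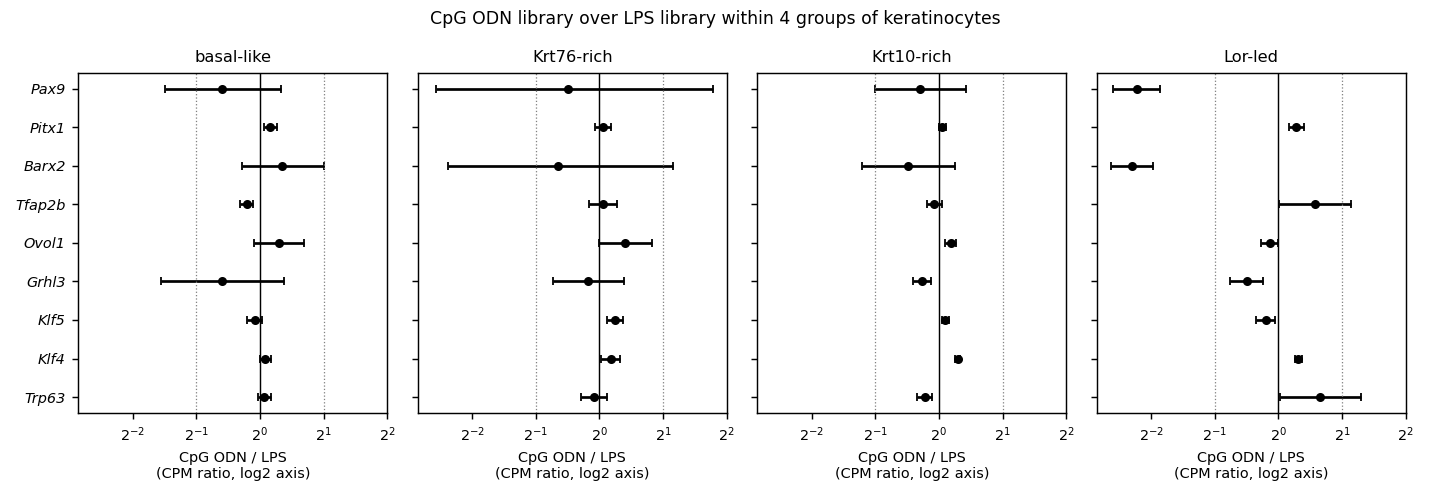
Ratio of CpG ODN over LPS in CPM for 9 genes (rows) within basal-like, Krt76-rich, Krt10-rich and Lor-led cells (panels), with 95% intervals for counting error on a log2 axis whose dotted lines mark 2-fold. All points lie within 2-fold of 1 except Barx2 and Pax9 in the Lor-led cells, which lie to the left.

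Other transcription factors, from lists by role, were counted in the same comparison of Krt10-rich with basal-like cells. Of the 18 measured factors of differentiation, 8 were higher, 1 was lower and 9 were neither, with a median log2 ratio of 0.72 over the list, beside 7.91% of all genes higher, 19.5% lower and an all-gene median of -0.43 in CpG ODN and -0.39 in LPS. The highest were Grhl1, a second Grainyhead-like gene (27.0-fold and 18.5-fold), Zfp750, a zinc finger factor of the epidermal program (16.9-fold and 13.1-fold), and Elf5, an ETS factor (23.8-fold, from 2 UMIs in basal-like cells, and at least 10.0-fold in LPS, where basal-like cells held none). Grhl2 was the lower one, from 39.0 and 37.2 CPM in basal-like to 16.7 and 16.5 CPM in Krt10-rich cells, and thus opposite to its relatives Grhl1 and Grhl3. Rora (0.702 in both libraries) and Dlx3 (0.883 and 0.968) were the next lowest ratios.

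Of 21 measured factors of the basal state and of growth, none was higher, 7 were lower and 14 were neither, with a median log2 ratio of -0.59, beside the same 7.91% higher and 19.5% lower of all genes. Trp73, the p53 family relative of Trp63, was 18.5 and 16.3 CPM in basal-like cells and 0.242 and 0 CPM in Krt10-rich cells. Sox6 (34.7 and 35.3 CPM against 7.01 and 6.11) and Nfib (377 and 371 CPM against 72.7 and 72.9) were lower as well. Fosl1, Junb and Jun had the highest ratios of this list, with 2.38 and 1.65, 1.72 and 1.52, and 1.68 and 1.51. Junb and Jun are also among the 12 early response genes. The sum of those 12 was 7985 and 6975 CPM in Krt10-rich and 4924 and 4824 CPM in basal-like cells.

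Of 10 measured oral and regional factors, none was higher, 2 were lower (Dlx2 and Isl1) and 8 were neither, with a median log2 ratio of -0.33, beside the same background. In H19-led against basal-like cells none of 10 was higher and 3 were lower, beside 1.11% and 2.28% of all genes. In Krt4-led against Krt10-rich cells none of 9 was higher and 3 were lower, beside 3.05% and 2.49% of all genes. Foxa1, a forkhead gene of this list that was under the minimum of 50 UMIs and was named after its values were seen, had ratios above 1 in both comparisons. It was 22.8-fold (5.20 to 136) and 48.2-fold (12.4 to 414) higher in H19-led than in basal-like cells, from 7 against 3 and 34 against 2 UMIs, and 14.3-fold (3.39 to 69.0) and 6.52-fold (2.67 to 17.5) higher in Krt4-led than in Krt10-rich cells, from 6 against 4 and 17 against 8 UMIs. Msx2, a homeobox gene, was 1.90 and 1.19 CPM in H19-led against 15.9 and 18.0 CPM in basal-like cells, and 4.23 and 7.81 CPM in Krt4-led against 22.7 and 29.6 CPM in Krt10-rich cells. Isl1 was lower in both comparisons too, Dlx5 in the first and Tbx1 in the second.

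The genes whose levels ran most like those of the 10 were sought over 16 points, the 8 groups in 2 libraries, among 10118 genes. These points share libraries and depth, and the correlations are descriptions. Barx2 and Pax9 ran with each other (Pearson r = 0.962), and Foxc1, a forkhead gene, was near both (0.945 and 0.963). Trp63 was nearest to Plxnb1 and Zyx (0.991 and 0.989), Tfap2b to Nptn and Tmsb4x (0.981 for each), Grhl3 to Psapl1 and Serpinb12 (0.995 and 0.993), Ovol1 to Cdkn1a and F3 (0.970 and 0.968), and Klf4 to Sprr1b and Cnfn, both genes of cornification (0.985 and 0.980). Klf5 and Pitx1 had looser neighbours, Rasa3 and Ces1d (0.934 and 0.918) and Dynlt3 and Pmvk (0.943 and 0.939). Among the 10 themselves Trp63 ran with Tfap2b (0.958) and against Grhl3 (-0.948), and Ovol1 ran with Grhl3 (0.947) and Klf4 (0.921).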

How the data were processed

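Gingival cells of the CpG ODN and LPS groups were profiled by 10x Genomics 3' single-cell RNA sequencing. The authors deposited 1 filtered matrix of raw UMI counts per library, made with Cell Ranger (4.0.0 per the file headers), and their processing notes name Seurat; the genome build used for alignment is not given in the sources used here. The total was 72173148 UMIs in CpG ODN and 38656738 in LPS, from 6219 and 2016 barcodes, and CPM values below were computed from the deposited counts, not by the authors.

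The study's minimum of 800 detected genes per cell was kept. Each cell was scaled to a sum of 10000 and the natural log of 1 plus that value was taken, after which 2000 variable genes, 30 principal components and 15 neighbours were used for Leiden clustering at resolution 1 (Python 3.11.15, scanpy 1.11.5, leidenalg 0.10.2, numpy 2.4.6, scipy 1.17.1). Clusters were named from fixed markers. The keratinocyte groups were then formed by limits set after the clusters had been seen, on the cluster levels of H19 (100 CPM), Lor (1000), Krt4 (5000), Mki67 (100), Krt10 (1500) and Krt76 (3000 and 10000). Names rebuilt from clusters may differ from those of the study. Scrublet called 0.225% and 0.157% of cells as doublets, which is too few to have worked, so doublets were kept.

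UMIs were summed per group and library. Levels carry exact Poisson, ratios exact conditional binomial and shares exact Clopper-Pearson 95% intervals. PCR and sequencing errors beyond the UMI are not covered, and a count of 0 was read as at most 3 counts. A gene was counted as higher or lower at 2-fold or more in the same direction in both libraries, among genes with at least 50 UMIs in the compared cells of each library. No p-value can be had with 1 library per group. Shares of cells were also computed after thinning every cell to 1500 and to 5000 UMIs. An Ighm-led cluster stood in for the planned B-like cells, which could not be named because a plasma cell marker was among its leading genes.

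The 10 genes, the lists and the tests were chosen with earlier results of these data known. The named genes are the 10, from each of 3 other lists the 3 highest and 3 lowest ratios, the oral and regional genes called in further comparisons and the 2 genes nearest to each of the 10 by Pearson correlation of log2(CPM + 10) over 16 points, among genes with at least 200 UMIs. Krt13, Krt4, Foxa1 and the genes leading a cluster were named after their values were seen. Gene coordinates are from GENCODE M21 (GRCm38), matched by gene ID, and promoter windows are from RefSeq (GRCm38.p6). The scripts were tested on simulated data. Alternatives covered scaling, limits, clustering and depth, and 5 of them were chosen after seeing the data.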

Additional observations from a re-analysis of the deposited data

Results flagged for a closer look

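Barcodes with fewer than 800 detected genes, 1331 in CpG ODN and 739 in LPS, took no part in the comparisons, and UMIs of most of the 10 genes were nevertheless found there above the limit that a count of 0 allows. In CpG ODN these barcodes held Klf4 at 143 CPM, Pitx1 at 49.5 CPM, Klf5 at 35.3 CPM, Ovol1 at 17.3 CPM, Tfap2b at 11.8 CPM, Trp63 at 6.81 CPM, Grhl3 at 4.33 CPM and Pax9 at 3.10 CPM. In LPS they held Klf4 at 45.3 CPM, Klf5 at 16.0 CPM, Pitx1 at 14.6 CPM, Trp63 at 4.66 CPM, Tfap2b at 3.99 CPM and Ovol1 at 2.66 CPM. Krt14 stood at 1355 and 478 CPM in the same barcodes. Barx2 had 0 UMIs in CpG ODN and 1 in LPS.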

How the results depend on the processing

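Of 111 counts of genes under other settings, 101 stayed within 1.5 times the reported count, which takes in 3 becoming 2 and 0 staying 0. Of 63 log2 ratios, 40 kept their sign under every setting. No paired analysis was possible because a single library stands for each group. In Krt10-rich against basal-like cells, the 3 higher genes became 5 with median-of-ratios scaling and 5 with a 1.5-fold limit. The 2 genes higher in H19-positive cells became 0 within H19-led cells. The 2 lower genes became 0 with a limit of 1 H19 UMI, 1 with 10 UMIs, 1 at 3-fold, 0 within basal-like and H19-led cells and 0 within H19-led cells. Between the libraries, the count of 0 became 3 in basal-like and 1 in Krt10-rich cells when layers were set by the keratins of each cell, over all cells of the 8 groups, instead of clusters, with log2 ratios of CpG ODN over LPS in basal-like cells of -1.05 for Grhl3, -1.19 for Barx2 and -1.64 for Pax9. Among the genes called, log2 ratios of H19-positive over H19-negative cells turned for Grhl3 in CpG ODN with 10 H19 UMIs (0.0742, reported -1.28), for Pax9 in CpG ODN within H19-led cells (-0.91, reported 2.37) and for Ovol1 in LPS within basal-like and H19-led cells (0.53, reported -1.73). Trp63, Tfap2b, Klf5 and Pitx1, which were not called, also changed sign in both libraries under 1 to 7 settings. The construction of these settings differs in the cells compared, and the cause was not tested. Clustering with all genes allowed gave no Krt76-rich cells and so no value there. Without the Krt10-rich clusters high in early response genes, chosen after seeing the data, 2 genes were higher and 2 lower, and Klf4 was no longer called. Without the basal-like cluster high in them as well, 3 were higher (Grhl3, Ovol1 and Klf5) and 2 lower. Without the Ccl20-led cluster alone, which left another such cluster in place, 3 were higher and 2 lower. Depth limits Gata3, Grhl3 in basal-like cells and all genes in the 42 and 57 H19-positive cells.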
